A study of Mus musculus with 9 samples.

Results

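The mRNAs described here encode the proteins that take a cell through G1 and into S phase: the cyclins Ccnd1, Ccnd2, Ccnd3, Ccne1, Ccne2 and Ccna2, the cyclin-dependent kinases Cdk2, Cdk4 and Cdk6, and the phosphatase Cdc25a. Every probe set annotated to 1 of these 10 genes was taken, and each was kept apart, which gave 13 of the 12422 probe sets of the array. They represent 9 of the 10 genes, since the annotation used here lists no probe set for Cdk6. Ccnd1, Cdk2, Cdk4 and Cdc25a have 2 probe sets each. Of the 13, 12 were bright enough to be tested, among 9686 tested on the whole array, and cover 8 genes. The probe set of Ccne2 was below the floor of 197 on all 9 arrays.

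The study measured total RNA of 2 prostate epithelial cell lines of the mouse on single-colour arrays. Rb-/-PrE is the line labelled as lacking both copies of the retinoblastoma gene, Rb1, and wtPrE is its wild-type control. The 4 groups were Rb-/-PrE after 48 hours without serum (Rb-/-PrE serumfree, 2 arrays), wtPrE treated in the same way (wtPrE serumfree, 2 arrays), Rb-/-PrE in 5% fetal bovine serum (Rb-/-PrE serum, 2 arrays) and wtPrE in 5% serum (wtPrE serum, 3 arrays). All were grown in RPMI-1640 medium. Each genotype is represented by 1 line, so a genotype difference here is a difference between these lines. Whether the arrays of 1 group hold separate cultures is not stated in the labels, so the p-values measure the spread between arrays, which may be technical.

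The retinoblastoma protein, the product of Rb1, binds E2F transcription factors and holds their target genes down in G1. Growth factors raise the D cyclins, which activate Cdk4 and Cdk6. These kinases phosphorylate the retinoblastoma protein and release E2F. Cyclin E with Cdk2 then drives entry into S phase, and cyclin A2 takes over as the partner of Cdk2 while DNA is copied. Cdc25a removes inhibitory phosphates from Cdk2. Ccne1, Ccne2, Ccna2 and Cdc25a are themselves known E2F targets, whereas the D cyclins respond mainly to mitogens.

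Levels are normalized intensities, which are set against each other only within a probe set, because different probe sets hybridise with different strength. Differences are on the log2 scale with their standard error (SE). A difference passed when its adjusted p from limma was under 0.05. The median deposited intensity of the arrays lay between 445 and 474. Rb1 itself, on its tested probe set 97948_at, read 171 and 167 on the Rb-/-PrE serumfree arrays, against 386 and 370 on the wtPrE serumfree arrays. In serum it read 114 and 109.5 in Rb-/-PrE, against 715, 398 and 368 in wtPrE. All 4 Rb-/-PrE arrays were thus below the floor and all 5 wtPrE arrays above it. No source used here says which part of Rb1 is missing, or whether the probe set lies there. Of the wild-type arrays, wtPrE serum 1 stood apart. Its rank correlation with wtPrE serum 2 and 3 was 0.986 and 0.984, against 0.997 between those. Set against the mean of wtPrE serum 2 and 3, it lay towards the Rb-/-PrE serum mean for 9 of the 12 tested probe sets described here. The share over all tested probe sets was not counted. Among the 9, Cdk4 160538_at and Cdc25a 97390_at differed by only -0.004 and 0.001 between Rb-/-PrE serum and wtPrE serum 2 and 3. The side says little for these. For Ccna2 the departure was -0.0117, beside -0.0127 between wtPrE serum 2 and 3. On Ccnd1 94231_at wtPrE serum 3 was lower still, at 1729 against 1858 on wtPrE serum 1.

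In a check of the epithelial label, 8 of 9 epithelial markers were above the floor on all arrays, among them Epcam, Cdh1, Krt5 and Krt8. Of the prostate lineage markers, Hoxb13, Foxa1 and Trp63 were above the floor on all arrays and the secretory gene Pbsn was below it. The summed level of the 4 measured prostate markers was 1690 to 1917 in Rb-/-PrE serumfree and 979 to 1029 in wtPrE serumfree. In serum that sum was 2066 to 2097 in Rb-/-PrE and 1085 to 1285 in wtPrE. The part of this difference in the results on the cyclins was not tested. The summed level of 6 smooth muscle markers was 2244 to 2296 in Rb-/-PrE serumfree and 3222 to 3353 in wtPrE serumfree, and 2366 to 2384 in Rb-/-PrE serum and 3287 to 4104 in wtPrE serum. Its defining genes Acta2, Cnn1 and Myh11 were below the floor on all 9 arrays, and the other 3, Des, Smtn and Tagln, were above it on all 9. The part of these levels in the results on the cyclins was not tested. Of the 6 measured leukocyte markers Ptprc was below the floor on all arrays, and 4 (Cd3e, Cd68, Csf1r and Itgam) were above it on all. Of 5 endothelial markers Tek and Tie1 were below it and Kdr and Pecam1 above it on all arrays. Of 6 fibroblast markers Vim was below it, and 5 (Col1a1, Col1a2, Col3a1, Dcn and Pdgfra) were above it on all arrays.

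**Figure D1:**
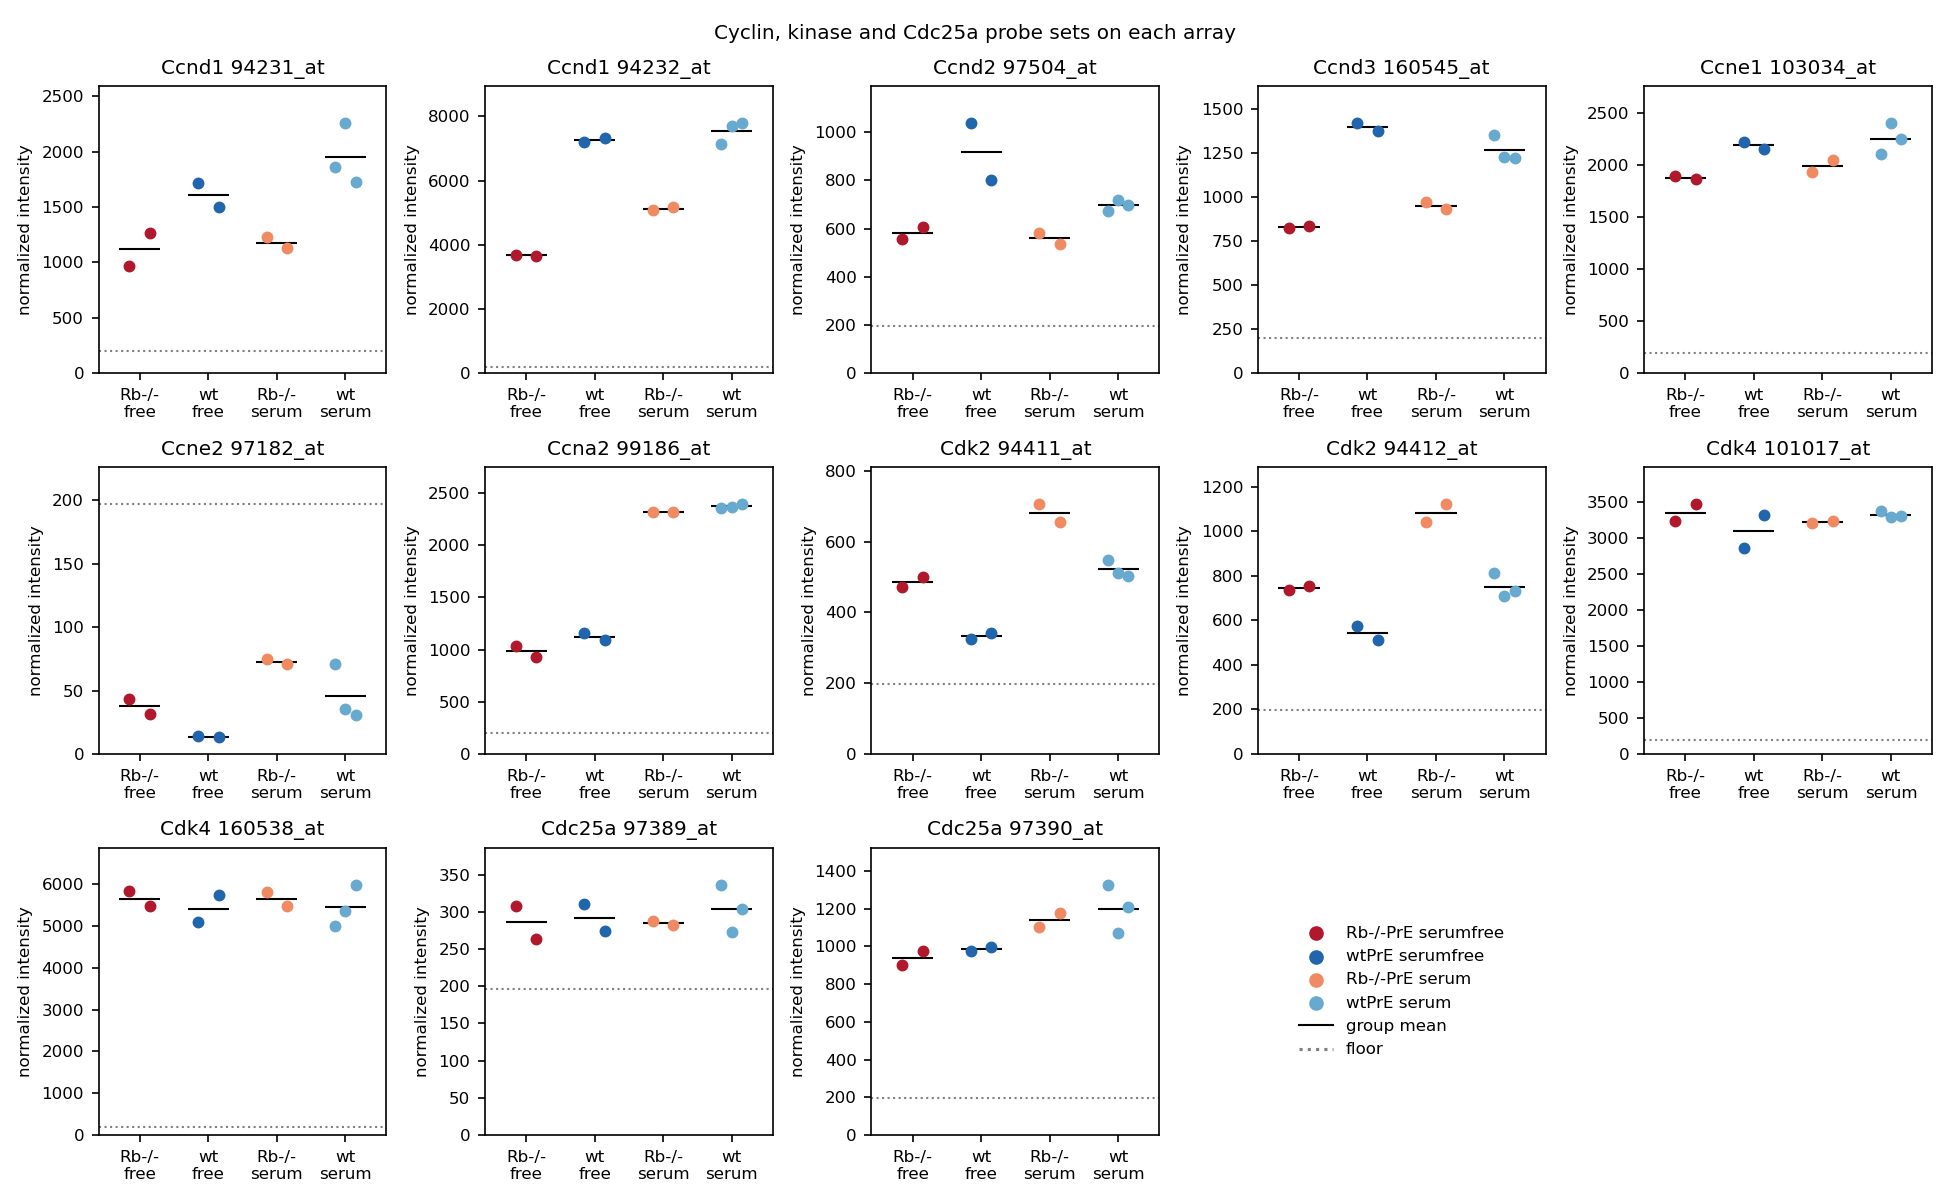
Normalized intensity (linear axes from 0) of each of the 13 probe sets on the 9 arrays, with a panel for each probe set, points for arrays, a short line for the group mean and a dotted line for the floor. The points of the D cyclins are lower in Rb-/-PrE than in wtPrE in both media, those of Cdk2 are higher, those of Ccna2 separate by serum, and all points of Ccne2 are below the floor.

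The first question was how the lines differed. All 3 D cyclins were lower in Rb-/-PrE cells, by 1.40- to 1.71-fold averaged over both media, and Cdk2 was higher by 1.38- and 1.41-fold on its probe sets. Ccna2, Cdk4 and Cdc25a did not pass. Of the 12 tested probe sets, 2 were higher and 5 were lower in Rb-/-PrE in the average over media. Over the whole array 45.2% of probe sets passed in that comparison, 21.8% higher and 23.4% lower. The median difference of the 12 was -0.09, beside -0.05 over all tested probe sets.

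Cyclin D1 (Ccnd1) is the D cyclin most often tied to growth factor signalling in epithelia. Its brighter probe set, 94232_at, read 3673 and 3656 in Rb-/-PrE serumfree, against 7213 and 7335 in wtPrE serumfree. In serum it read 5075 and 5174 in Rb-/-PrE, against 7150.0, 7687 and 7781 in wtPrE. All 4 Rb-/-PrE arrays were below all 5 wtPrE arrays, and the Rb-/-PrE serumfree arrays were the lowest. The difference was -0.77 averaged over media (SE 0.04, adjusted p = 8.86e-07), which is 1.71-fold lower in Rb-/-PrE. It was -0.99 without serum (SE 0.06, adjusted p = 4.76e-06), or 1.99-fold lower, and -0.56 in serum (SE 0.05, adjusted p = 0.000101). In RNA of whole cultures, fewer expressing cells and less mRNA per cell cannot be told apart.

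The dimmer Ccnd1 probe set, 94231_at, read 967 and 1266 in Rb-/-PrE serumfree, against 1714 and 1497 in wtPrE serumfree. The serum arrays gave 1229 and 1126 in Rb-/-PrE, against 1858, 2254 and 1729 in wtPrE. Again no Rb-/-PrE array reached a wtPrE array, but the arrays of a group spread more widely than on 94232_at. The difference was -0.63 averaged over media (SE 0.11, adjusted p = 0.00149). It was -0.53 (SE 0.16, adjusted p = 0.0313) between the serum-free groups and -0.72 (SE 0.14, adjusted p = 0.00665) between the serum groups. The serum-free call of 94231_at was lost under 9 alternatives, among them both other scalings and the removal of wtPrE serumfree 1 or 2, Rb-/-PrE serum 1 or 2, or Rb-/-PrE serumfree 1, with adjusted p up to 0.204. The call in serum was lost without Rb-/-PrE serum 2 (adjusted p = 0.0752).

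Cyclin D2 (Ccnd2) shares the kinase partners of cyclin D1. Its probe set read 556 and 606 in Rb-/-PrE serumfree, against 1036 and 803 in wtPrE serumfree. With serum the levels were 581 and 537 in Rb-/-PrE, against 673, 719 and 699.6 in wtPrE. The Rb-/-PrE arrays were below the wtPrE arrays in each medium, with the wider gap after serum withdrawal. The difference was -0.49 averaged over media (SE 0.08, adjusted p = 0.00174). Between the serum-free groups it was -0.65 (SE 0.13, adjusted p = 0.0053). In serum it was -0.32 (SE 0.11, adjusted p = 0.0746), which did not pass with all arrays and did without wtPrE serum 1 (-0.34, adjusted p = 0.0354). It also passed without wtPrE serumfree 1 or 2, arrays outside that comparison (adjusted p = 0.0416 and 0.041). It did not pass in the values as deposited (adjusted p = 0.145) or with a common median (adjusted p = 0.0977).

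Cyclin D3 (Ccnd3) is the third partner of Cdk4 and Cdk6. Its probe set read 825 and 834 in Rb-/-PrE serumfree, against 1419 and 1378 in wtPrE serumfree. Serum arrays read 974 and 930.5 in Rb-/-PrE, against 1351, 1231 and 1225 in wtPrE. In neither medium did the lines overlap. The difference was -0.58 averaged over media (SE 0.06, adjusted p = 6.88e-05), -0.75 without serum (SE 0.08, adjusted p = 0.000351) and -0.41 in serum (SE 0.08, adjusted p = 0.00488). The serum call was lost without Rb-/-PrE serum 2 (adjusted p = 0.0679).

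Cyclin E1 (Ccne1) activates Cdk2 at the G1/S boundary. Its probe set read 1892 and 1862 in Rb-/-PrE serumfree, against 2225 and 2156 in wtPrE serumfree. With serum present it read 1935 and 2049 in Rb-/-PrE, against 2105, 2398 and 2251 in wtPrE. The lines did not overlap, but the gap in serum was smaller than the range of wtPrE serum. The averaged difference was -0.20 (SE 0.05, adjusted p = 0.0164), a call that was lost in the values as deposited, where the sign turned (0.005, adjusted p = 0.944), and after scaling to a common median (-0.03, adjusted p = 0.696). It was also lost without wtPrE serumfree 1 (adjusted p = 0.063) or Rb-/-PrE serum 1 (adjusted p = 0.074). Neither medium passed alone, at -0.22 without serum (adjusted p = 0.0635) and -0.18 in serum (adjusted p = 0.122). Without wtPrE serum 1 both passed, at -0.22 (adjusted p = 0.0142) and -0.22 (adjusted p = 0.0162). That array is not in the serum-free comparison, where the difference stayed at -0.22. Cyclin E2 (Ccne2) read 13.1 to 74.5 on its probe set, below the floor on every array, so no order among the groups is read from it.

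Cyclin A2 (Ccna2) partners Cdk2 in S phase and Cdk1 later. Its probe set read 1038 and 930.5 in Rb-/-PrE serumfree, against 1159 and 1092 in wtPrE serumfree. The levels in serum were 2317 and 2320.0 in Rb-/-PrE, against 2362, 2371 and 2392 in wtPrE. The arrays fell into the serum-free and serum groups, and the lines lay close together in each. The averaged line difference of -0.11 did not pass (SE 0.05, adjusted p = 0.112), and in serum its 95% interval was -0.20 to 0.13. Without serum the line difference was -0.19 (adjusted p = 0.0898), and it passed without wtPrE serum 1 (adjusted p = 0.0424). That array is not in the serum-free comparison, where the difference stayed at -0.19.

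Among the kinases, Cdk2 is the partner of cyclins E and A. Its promoter is shown with those of Cdk4 and Cdc25a, because E2F and Myc proteins act at promoters, and because Cdk2 differed between the lines while Cdk4 and Cdc25a did not pass. They come from RefSeq, build GRCm38.p6, and run from 250 bases before an annotated start to 50 after it, 5′ to 3′ on the gene's strand. For Cdc25a that start is not the gene's first, which lies at position 109875518. Capitals mark matches, on either strand, to 1 of the E2F octamers TTTCGCGC, TTTGGCGC, TTTCCCGC and TTTGCCGC, or to the E-box CACGTG, the letters that Myc proteins bind.
Cdk2, chr10:128705002-128705301, minus strand: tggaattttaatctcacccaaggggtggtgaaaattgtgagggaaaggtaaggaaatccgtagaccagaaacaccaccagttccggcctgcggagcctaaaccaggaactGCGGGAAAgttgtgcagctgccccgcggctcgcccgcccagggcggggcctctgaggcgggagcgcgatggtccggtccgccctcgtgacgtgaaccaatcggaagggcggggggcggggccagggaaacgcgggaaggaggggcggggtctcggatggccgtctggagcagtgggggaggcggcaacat
Cdc25a, chr9:109875329-109875628, plus strand: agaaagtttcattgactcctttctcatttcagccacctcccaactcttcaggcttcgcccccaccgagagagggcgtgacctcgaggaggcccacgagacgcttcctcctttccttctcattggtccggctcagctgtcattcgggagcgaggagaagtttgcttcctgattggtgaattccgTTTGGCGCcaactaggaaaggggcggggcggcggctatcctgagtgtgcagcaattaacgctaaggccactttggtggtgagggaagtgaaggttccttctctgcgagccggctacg
Cdk4, chr10:127063285-127063584, plus strand: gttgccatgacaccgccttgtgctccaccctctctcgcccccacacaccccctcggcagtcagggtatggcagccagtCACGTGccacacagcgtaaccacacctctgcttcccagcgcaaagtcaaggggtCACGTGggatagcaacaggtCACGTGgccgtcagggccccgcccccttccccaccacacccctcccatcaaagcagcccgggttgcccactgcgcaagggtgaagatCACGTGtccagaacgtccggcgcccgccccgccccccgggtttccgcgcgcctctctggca

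In the Cdk2 window GCGGGAAA, the reverse complement of TTTCCCGC, begins 140 bases before the start. In the Cdc25a window TTTGGCGC begins 67 bases before the annotated start used there, which is not the gene's first start. The Cdk4 window has 4 copies of CACGTG, which begin 172, 118, 98 and 11 bases before the start. Promoter windows were found for 6 of the 10 genes, 7 windows in all because Ccnd3 has 2. None was found for Ccnd1, Ccnd2, Ccne2 and Ccna2. An E2F octamer is present in 2 of the 7, against 2.26% of 32851 promoter windows of that table, and CACGTG is present in 2, those of Cdk4 and Cdk6, against 7.15%. For Cdk6, as for Cdc25a, the start used is not the gene's first, which lies at position 3341004. The Ccne1 window and both Ccnd3 windows hold neither motif. The motif sets do not overlap in these windows. A match describes the letters of the window only, and binding was not measured.

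The Cdk2 probe set 94411_at read 472 and 500.2 in Rb-/-PrE serumfree, against 325 and 342 in wtPrE serumfree. In serum it read 705 and 656 in Rb-/-PrE, against 549, 512 and 503 in wtPrE. Within each medium every Rb-/-PrE array was above every wtPrE array. The difference was 0.46 averaged over media (SE 0.06, adjusted p = 0.000397), 0.54 without serum (SE 0.09, adjusted p = 0.00274) and 0.38 in serum (SE 0.08, adjusted p = 0.00966). The second Cdk2 probe set, 94412_at, read 736 and 756 in Rb-/-PrE serumfree, against 576 and 514 in wtPrE serumfree. In serum this probe set read 1043 and 1121 in Rb-/-PrE, against 812, 708 and 732 in wtPrE. Its difference was 0.49 averaged over media (SE 0.07, adjusted p = 0.00057), 0.45 without serum (adjusted p = 0.0112) and 0.53 in serum (adjusted p = 0.00381). Both probe sets thus placed the lines in the same order. Both averaged calls held under every alternative. The serum call of 94411_at was lost without Rb-/-PrE serum 1 or 2 (adjusted p up to 0.106), and that of 94412_at without Rb-/-PrE serum 2 (adjusted p = 0.0587). The serum-free call of 94412_at was lost without wtPrE serumfree 2 or either Rb-/-PrE serumfree array (adjusted p up to 0.0819).

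Cdk4 is the main kinase partner of the D cyclins. Its probe set 101017_at read 3230 and 3461 in Rb-/-PrE serumfree, against 2855 and 3318 in wtPrE serumfree. In serum it read 3206 and 3234 in Rb-/-PrE, against 3364, 3291 and 3295 in wtPrE. The second Cdk4 probe set, 160538_at, lay between 5469 and 5824 on the Rb-/-PrE arrays and between 4998 and 5968 on the wtPrE arrays. With both media together the lines overlapped. The averaged differences were 0.04 (95% interval -0.08 to 0.16, adjusted p = 0.581) and 0.06 (95% interval -0.08 to 0.20, adjusted p = 0.445). Scaling changed this: in the values as deposited both Cdk4 probe sets passed as higher, at 0.22 (adjusted p = 0.0199) and 0.21 (adjusted p = 0.0215), and with a common median 101017_at passed at 0.19 (adjusted p = 0.0456).

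Cdc25a, the phosphatase, read 264 to 308 in Rb-/-PrE and 273 to 335 in wtPrE on probe set 97389_at. On 97390_at it read 903 and 975 in Rb-/-PrE serumfree, against 974 and 995 in wtPrE serumfree. In serum that probe set read 1101 and 1174 in Rb-/-PrE, against 1322, 1068 and 1208 in wtPrE. The lines overlapped on both probe sets. The averaged differences were -0.06 (95% interval -0.23 to 0.11, adjusted p = 0.539) and -0.07 (95% interval -0.24 to 0.10, adjusted p = 0.453).

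**Figure D2:**
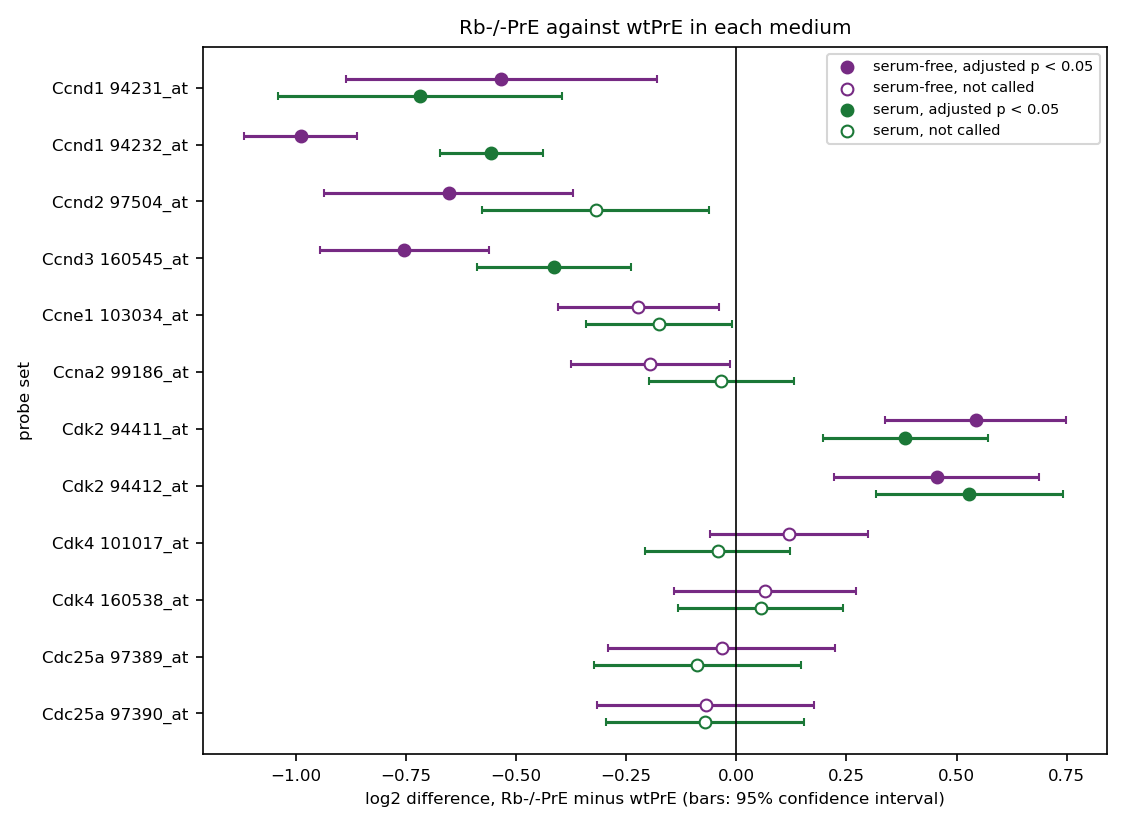
Log2 difference Rb-/-PrE minus wtPrE for the 12 tested probe sets, without serum (upper point of each pair) and in serum (lower point), with 95% confidence intervals and filled points for adjusted p under 0.05. The D cyclins are to the left of 0, Cdk2 to the right, and the intervals of Cdk4 and Cdc25a span 0.

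Taken per medium, 2 of the 12 probe sets were higher and 4 lower without serum, where 30.7% of all tested probe sets passed, 16.8% higher and 13.9% lower. In serum 2 were higher and 3 lower, where 23.6% passed, 13.2% higher and 10.4% lower. The 2 higher ones were those of Cdk2 in both media. Without wtPrE serum 1 the counts were 2 and 6 without serum and 2 and 5 in serum. Calls over all probe sets rose too in that setting, from 2971 to 4981 without serum and from 2287 to 4376 in serum. The split of the 12 depended on the scaling. In the average over media, 2 higher and 5 lower became 4 and 4 in the values as deposited, and 3 and 4 with a common median. Without serum, 2 and 4 became 3 and 3 in the values as deposited. The brightest 25% of probe sets had a median line difference of -0.03 after quantile normalization, 0.14 as deposited and 0.11 with a common median. The D cyclins were lower and Cdk2 higher in the average over media under all 3 scalings.

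**Figure D3:**
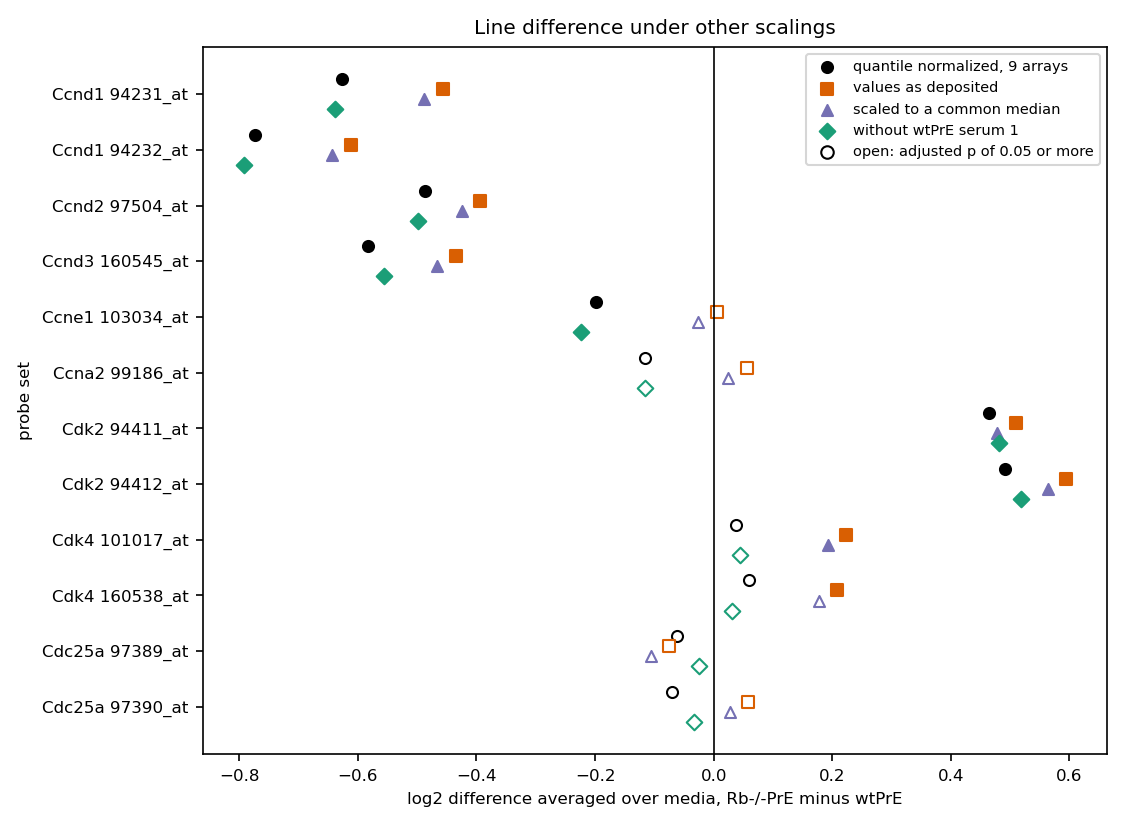
Log2 difference Rb-/-PrE minus wtPrE averaged over media for the 12 tested probe sets under 3 scalings and without wtPrE serum 1, with filled symbols for adjusted p under 0.05. Ccne1 is at -0.20 after quantile normalization and at 0.005 as deposited, where Cdk4 gains calls, while every symbol of the D cyclins and of Cdk2 is filled.

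The second question was what 48 hours without serum did in each line. Ccna2 fell by 57.6% in Rb-/-PrE and by 52.6% in wtPrE, and Cdk2 fell in both on both probe sets. Ccnd1 fell in Rb-/-PrE on its brighter probe set, and Ccnd2 rose in wtPrE. Cdk4 and Ccne1 passed in neither line. In Rb-/-PrE 4 of 12 probe sets were lower and 0 higher by limma, also 0 higher at an unadjusted p under 0.05, where 13.9% of all tested probe sets passed, 7.5% higher and 6.42% lower. In wtPrE 3 were lower and 1 higher, where 15.9% passed, 6.61% higher and 9.25% lower. Under both other scalings 3 were lower and 0 higher in wtPrE. Without wtPrE serum 1 the counts were 6 lower in Rb-/-PrE, and 3 lower and 0 higher in wtPrE. Calls over all probe sets rose in that setting from 1348 to 2280 in Rb-/-PrE and from 1536 to 1963 in wtPrE. The median of the 12 was -0.14 in Rb-/-PrE, beside 0.00 over all tested probe sets, and -0.08 in wtPrE, beside 0.05.

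For Ccna2 the withdrawal difference was -1.24 in Rb-/-PrE (SE 0.08, adjusted p = 1.47e-05), a 2.36-fold fall. In wtPrE it was -1.08 (SE 0.07, adjusted p = 1.86e-05), a 2.11-fold fall. These calls held under every alternative. The difference between the lines in this response, the interaction, was -0.16 (95% interval -0.40 to 0.08, adjusted p = 0.62). On 94411_at Cdk2 differed by -0.48 in Rb-/-PrE (adjusted p = 0.0073) and by -0.64 in wtPrE (adjusted p = 0.000832). On 94412_at it differed by -0.54 in Rb-/-PrE (adjusted p = 0.00815) and by -0.46 in wtPrE (adjusted p = 0.0098). Mean Cdk2 levels on these probe sets were 486 ± 19.9 and 746 ± 14.4 in Rb-/-PrE serumfree (SD, n = 2), and 521 ± 24.5 and 751 ± 54.5 in wtPrE serum (SD, n = 3), a pair of groups that was not tested. The interaction of Cdk2 was 0.16 (adjusted p = 0.659) and -0.07 (adjusted p = 0.845). The Rb-/-PrE calls were lost without Rb-/-PrE serumfree 1, or without Rb-/-PrE serum 1 for 94411_at and serum 2 for 94412_at (adjusted p up to 0.0761 and 0.0911). The wtPrE call of 94412_at was lost without wtPrE serumfree 2, and also with only the arrays of the 2 groups compared.

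Of the D cyclins, Ccnd1 passed on withdrawal in Rb-/-PrE, Ccnd2 in wtPrE and Ccnd3 in neither line. On 94232_at Ccnd1 fell by 0.48 in Rb-/-PrE (SE 0.06, adjusted p = 0.000618) and differed by -0.05 in wtPrE (SE 0.05, adjusted p = 0.558), where the serum-free arrays lay within the range of the serum arrays. The interaction of -0.43 passed (SE 0.08, adjusted p = 0.0397), and was the only 1 of 12 to do so, where 0.929% of all tested probe sets passed, 0.454% higher and 0.475% lower. It held with the floor at percentile 40 and without wtPrE serum 1 (-0.39, adjusted p = 0.0127), and was lost under each of the other 14 alternatives, any other array left out among them, with adjusted p up to 0.252. The other Ccnd1 probe set, 94231_at, differed by -0.09 in Rb-/-PrE (95% interval -0.44 to 0.26) and by -0.27 in wtPrE (95% interval -0.59 to 0.05). Its interaction was 0.18 (95% interval -0.29 to 0.66, adjusted p = 0.751), so the probe sets of Ccnd1 gave opposite signs.

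Ccnd2 rose by 0.39 in wtPrE (SE 0.11, adjusted p = 0.0489) and differed by 0.05 in Rb-/-PrE (SE 0.13, adjusted p = 0.898). The wtPrE call was lost under 14 alternatives, among them the other scalings and the removal of any single array but wtPrE serumfree 2, with 0.36 (adjusted p = 0.0551) without wtPrE serum 1. The interaction of Ccnd2 was -0.33 (95% interval -0.72 to 0.05, adjusted p = 0.53). Ccnd3 differed by -0.20 in Rb-/-PrE (adjusted p = 0.186) and by 0.14 in wtPrE (adjusted p = 0.277), with an interaction of -0.34 (SE 0.11, adjusted p = 0.293). Without wtPrE serum 1, an array outside that comparison, the Rb-/-PrE difference of Ccnd3 passed (adjusted p = 0.0483).

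Cdc25a on 97390_at differed by -0.28 in each line (adjusted p = 0.148 in Rb-/-PrE and 0.0972 in wtPrE). The Rb-/-PrE value passed without wtPrE serum 1 (adjusted p = 0.0353), an array outside that comparison. The wtPrE value passed without wtPrE serum 2 (adjusted p = 0.0453). On 97389_at Cdc25a differed by 0.00 in Rb-/-PrE (95% interval -0.26 to 0.26) and by -0.05 in wtPrE (95% interval -0.29 to 0.18). Ccne1 differed by -0.09 in Rb-/-PrE (95% interval -0.27 to 0.10) and by -0.04 in wtPrE (95% interval -0.20 to 0.13). For Cdk4 the differences in both lines and on both probe sets lay between -0.11 and 0.05. None of these 5 probe sets had an interaction that passed.

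**Figure D4:**
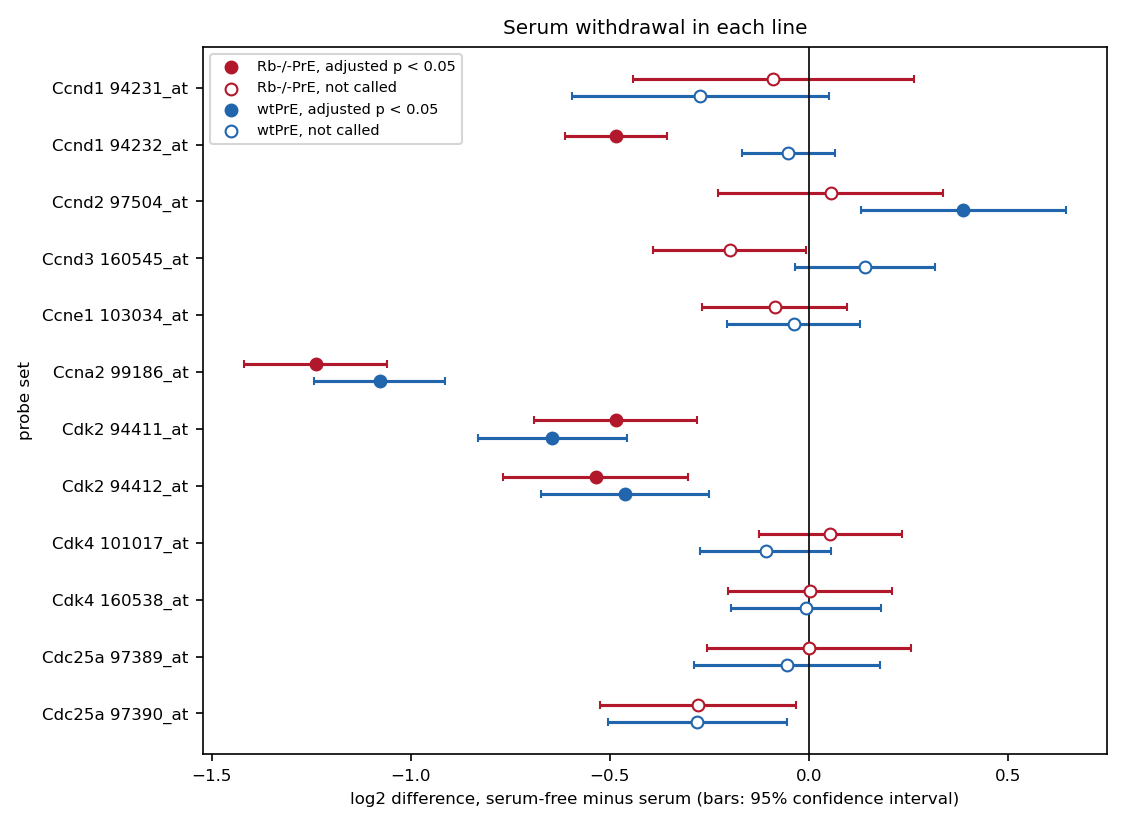
Log2 difference serum-free minus serum for the 12 tested probe sets in Rb-/-PrE (upper point of each pair) and wtPrE (lower point), with 95% confidence intervals and filled points for adjusted p under 0.05. Ccna2, at -1.24 and -1.08, is furthest to the left in both lines, and Ccnd1 94232_at is filled in Rb-/-PrE only.

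The order of the group means over all 4 groups differed by gene. Ccnd1 on 94232_at was lowest in Rb-/-PrE serumfree (3664 ± 12.3, SD, n = 2), then in Rb-/-PrE serum (5124 ± 69.7, SD, n = 2), and highest in the wtPrE groups (7274 ± 86.7 serumfree, SD, n = 2, and 7540 ± 341 serum, SD, n = 3), which did not differ beyond their spread. Ccnd3 had the same lowest pair, with 829 ± 6.52 in Rb-/-PrE serumfree and 952 ± 30.7 in Rb-/-PrE serum (SD, n = 2 each). Its highest mean was in wtPrE serumfree (1399 ± 28.7, SD, n = 2), above wtPrE serum (1269 ± 71.4, SD, n = 3), neighbours whose difference did not pass. Cdk2 on 94411_at was lowest in wtPrE serumfree (334 ± 12.5, SD, n = 2) and highest in Rb-/-PrE serum (680 ± 34.9, SD, n = 2), with the remaining groups between.

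The genes whose log2 values followed these most closely over the 9 arrays were named by Pearson's r alone. For Ccnd1 on 94232_at they were Mapre1, a microtubule end-binding protein (r = 0.995), Llgl2, a cell polarity gene (r = 0.992), Tcstv1 (r = 0.988), Ankrd1 (r = 0.985) and the retinaldehyde dehydrogenase Aldh1a2 (r = 0.983). For Ccna2 they were the tubulin Tuba1a (r = 0.994), the Cdk subunit Cks1b (r = 0.993), the mitotic kinase Aurkb (r = 0.991), the tubulin Tuba1c (r = 0.991) and the condensin subunit Smc2 (r = 0.989). The arrays fall into 4 groups that these values share, so r describes mostly the group means. The probe sets of Tcstv1, Tuba1a and Tuba1c carry a suffix for probes that can also hybridise to related transcripts.

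Other genes of the pathway were counted from 7 lists, with the brightest probe set standing for each gene. The list counts in the average over media stand beside 21.8% higher and 23.4% lower over all tested probe sets. Without wtPrE serum 1 the calls over all probe sets rose there from 4377 to 6074. Among S phase genes driven by E2F, 10 of 13 measured were higher in Rb-/-PrE in the average over media and 2 were lower, with a median of 0.63 beside -0.05 over all tested probe sets. The 2 with the lowest adjusted p were the sliding clamp Pcna at 0.87 and the primase gene Prim1 at 1.34. On the lower side stood the thymidine kinase Tk1 at -0.30 and the helicase subunit Mcm5 at -0.24, calls that were absent in the values as deposited and with a common median (10 higher and 0 lower in each). Ccna2 and Ccne1, also known E2F targets, stood at -0.115 (not called) and -0.199 in the same comparison, but at 0.056 and 0.005 in the values as deposited and at 0.025 and -0.026 with a common median, with no call in either. The 3 measured mitotic genes gave 0 calls by limma in that average and 0 at an unadjusted p under 0.05. They gave 2 higher and 1 lower without wtPrE serum 1, and 1 higher and 0 lower under each of the other scalings.

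Of 6 measured CDK inhibitors, 2 were lower in Rb-/-PrE and 0 higher by limma, with 1 higher at an unadjusted p under 0.05. Without wtPrE serum 1 the counts were 4 lower and 1 higher, and under both other scalings 2 lower and 1 higher. The 2 lower with all arrays were Cdkn1a, which encodes p21 (-0.42, SE 0.06), and Cdkn2d, an inhibitor of Cdk4 and Cdk6 (-0.43, SE 0.11). Among 11 CDK regulators and partners 4 were higher, with the Cdk subunit Cks2 at 0.53 and the ubiquitin ligase scaffold Cul1 at 0.40, and 1 was lower, Cks1b at -0.16, a call absent under both other scalings. Of 8 other cyclins and kinases 3 were higher, led by Cdk8, a kinase of the Mediator complex, at 0.87 (SE 0.05). The pocket proteins and E2F factors gave 2 higher and 2 lower of 8, near the shares over all tested probe sets (21.8% and 23.4%). The E2F partner Tfdp1 stood at 0.25, and the lower ones were Rb1 itself and E2f8, a repressor of the E2F family, at -0.58. Upstream of the D cyclins 4 of 9 were higher and 4 lower, with the lowest adjusted p for beta-catenin (Ctnnb1) at 0.75 and Ets2 at 0.67, and for Fos at -1.18 and Mycn at -0.57. The other 4 called, named after their values were seen, were the transcription factors Myc at 1.12, Fosl1 at 0.69 and Egr1 at -0.59 and the kinase Akt1 at -0.37. The probe set of Tfdp1 ends in _f_at, the suffix for probes that can also hybridise to related transcripts. Other suffixes are carried by those of E2f8 and Mcm5 (_r_at) and of Mcm3, named below (_s_at).

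After serum withdrawal the S phase list was lower for 9 of 13 in Rb-/-PrE and for 12 of 13 in wtPrE, with medians of -0.46 and -1.28 beside 0.00 and 0.05 over all tested probe sets. Rrm2, a ribonucleotide reductase subunit, stood at -2.27 in Rb-/-PrE and -2.52 in wtPrE. The interaction passed for 2 of the 13, the helicase subunits Mcm7 at 0.86 and Mcm3 at 0.83, and for 7 without wtPrE serum 1. Over all probe sets 255 interactions passed without that array, against 90 with it. All 3 mitotic genes fell in both lines, with Ccnb2 at -2.30 in Rb-/-PrE and -2.11 in wtPrE and Cdk1 at -1.67 in Rb-/-PrE and -1.58 in wtPrE. The Cdk subunit gene Cks2 fell too, at -1.78 in Rb-/-PrE and -1.84 in wtPrE. The inhibitors Cdkn1a (0.47 in Rb-/-PrE and 0.49 in wtPrE) and Cdkn2b (0.45 in Rb-/-PrE and 0.73 in wtPrE) rose in both lines, and no measured CDK inhibitor was lower by limma or at an unadjusted p under 0.05. Fos rose by 1.79 in wtPrE and stood at 0.42 in Rb-/-PrE (limma adjusted p = 0.115). Its interaction passed at -1.37 (SE 0.21, adjusted p = 0.0203). Egr1 rose in both lines, by 1.40 in wtPrE and 0.92 in Rb-/-PrE, and its interaction did not pass (adjusted p = 0.269). Myc stood at -0.78 in wtPrE, which passed, and at 0.08 in Rb-/-PrE, which did not.

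**Figure D5:**
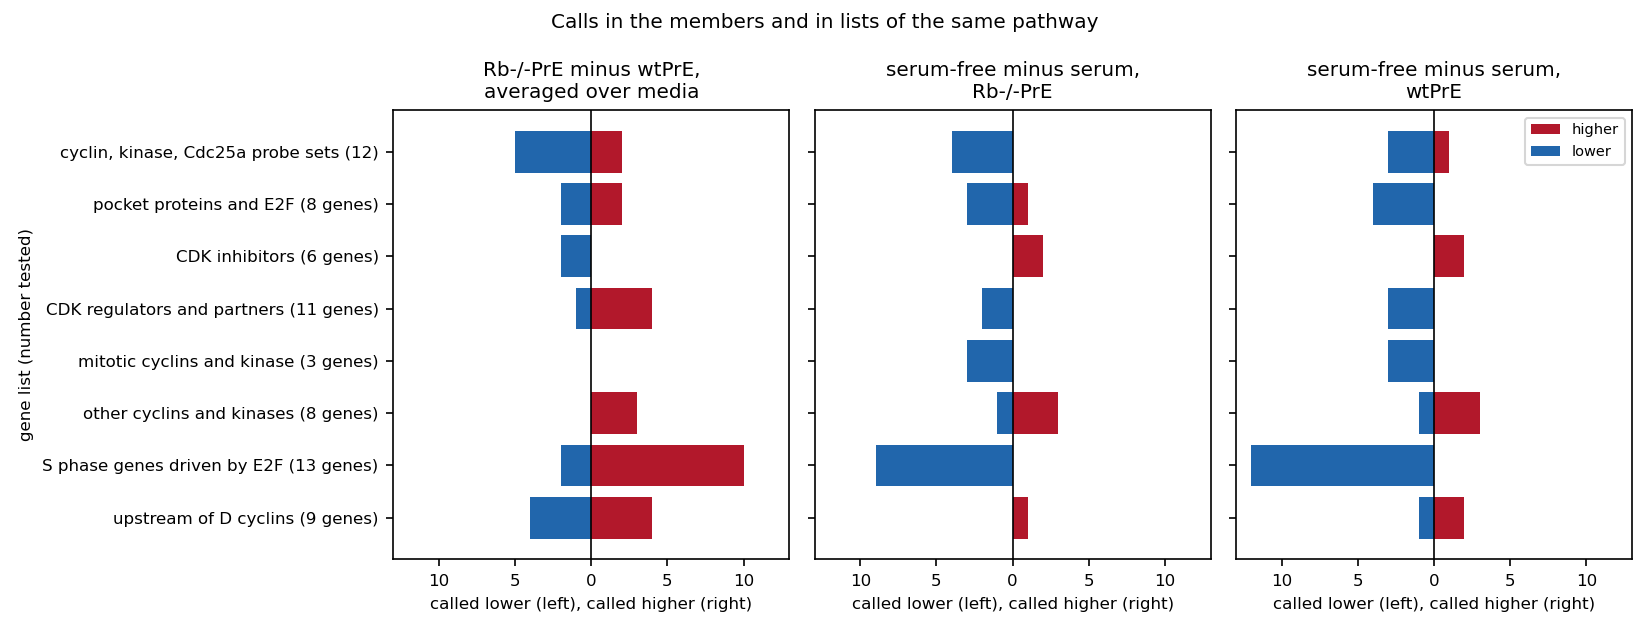
Number of probe sets or genes called lower (left of 0) and higher (right of 0) among the 12 cyclin, kinase and Cdc25a probe sets and in 7 pathway lists, for the line difference averaged over media and for serum withdrawal in Rb-/-PrE and in wtPrE. The S phase list has 10 higher in the line difference and 9 and 12 lower on withdrawal.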

How the data were processed

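The authors deposited 1 intensity, on a linear scale, for each probe set of the 9 single-channel arrays of total RNA. Neither labels nor file header name the software or scaling behind them. The upper quartiles of the arrays spanned 0.22 on the log2 scale, so the deposited intensities were quantile normalized. They lay at 1119 to 1153 on the Rb-/-PrE arrays and at 991 to 1088 on the wtPrE arrays. The normalization thus also took out a difference between the lines. Values below the percentile 25 of all values (196.7) were raised to that floor, and all values were taken to log2. Probe sets above the floor on at least 2 arrays were tested, which left 9686. Probe sets were named from the platform annotation, with symbols updated through RefSeq.

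limma 3.58.1 (R 4.3.3) fitted 4 group means to all 9 arrays with an intensity trend, which left 5 residual and 4.2 prior degrees of freedom. All p-values are two-sided and were adjusted by Benjamini-Hochberg over all 9686. The procedure was tested on simulated data. The interaction is the serum-free minus serum difference in Rb-/-PrE minus that in wtPrE. The genes and lists were chosen with earlier results of these data known. From each list and comparison, up to 2 passing genes a direction with the smallest adjusted p could be named, and for Ccnd1 and Ccna2 the 5 with the highest r. Alternatives were 2 other scalings, 2 other floors, no filter, no trend, a replicate block, only the arrays compared, and each array left out. The number of arrays limits the precision.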

Additional observations from a re-analysis of the deposited data

Results flagged for a closer look

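The response of Ccnd1 on probe set 94232_at to serum withdrawal differed between the lines by a test of the difference itself. The interaction was -0.43 (SE 0.08, limma adjusted p = 0.0397), with both Rb-/-PrE serum-free arrays below both Rb-/-PrE serum arrays. The wtPrE serum-free arrays were inside the range of the wtPrE serum arrays only through wtPrE serum 1. In the values as deposited they were below every wtPrE serum array. The other Ccnd1 probe set, 94231_at, gave 0.18 (adjusted p = 0.751). The call was lost under 14 alternatives, with adjusted p up to 0.252, and the cause was not tested.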

How the results depend on the processing

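Of 27 calls among the 12 probe sets over 6 comparisons, 15 held under every alternative run for them (16 for the average over media, 17 for each comparison of 2 groups): the D cyclins and Cdk2 in the average over media, Ccnd1 94232_at in each comparison of groups except withdrawal in wtPrE, where it was not called, Ccnd2, Ccnd3 and Cdk2 94411_at without serum, Ccna2 on withdrawal in both lines and Cdk2 94411_at on withdrawal in wtPrE. Of 1194 recomputed values 1125 kept their side of the threshold, 54 lost a call, 14 gained 1, and 1 called value changed sign. Of the 1125, 63 changed sign without a call in either setting. Ccne1 in the average over media turned to 0.005 in the values as deposited. The cause was not tested. With arrays left out in turn, the number of the 12 called was 6 to 7 in the average over media, 1 to 7 in serum, 4 to 8 without serum, 2 to 6 for withdrawal in Rb-/-PrE, 3 to 4 for withdrawal in wtPrE and 0 to 1 for the interaction. Over all probe sets, in the same order, it was 3068 to 6074, 877 to 4376, 1159 to 4981, 497 to 2280, 667 to 1963 and 12 to 255, and the highest value of each came without wtPrE serum 1. With only the arrays of the 2 groups compared, 2 of the 12 were called for withdrawal in wtPrE, and over all probe sets 768 (1536 with all arrays), as were 1505 in serum (2287 with all arrays), in fits with fewer arrays. The interaction had 0 of the 12 called in the values as deposited, with a common median, with the floor at percentile 10, without the filter, without the trend and with the replicate block. Over all probe sets it had 57 called with the floor at percentile 10, 57 without the trend and 51 with the replicate block, against 90. Whether the replicate numbers pair the arrays could not be decided. Of 12 same-numbered pairs, 2 had deviations from the group mean that correlated above 0.1 (range -0.231 to 0.331). In a group of 2 arrays these deviations mirror each other, so the pairs are not independent. The replicate block left 7, 5, 6, 4 and 3 of the 12 called in the other 5 comparisons. Of 700 list counts 599 stayed within 1.5 times. Signal below the floor on all 9 arrays limits Ccne2, which could not be tested with the filter.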
